A study of Arabidopsis thaliana with 36 samples.

Results

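The comparison sets the wrky18 wrky40 double mutant against the wrky18 single mutant of Arabidopsis thaliana, both sampled 1 h after flg22. The intended difference is the loss of WRKY40 in plants that already lacked WRKY18. Each side has 3 libraries, which makes 6 of the 36 libraries of the series. The double mutant and the wrky18 seedlings were whole 12-day-old Col-0 plants, grown in liquid MS medium with sucrose and claforan, which received fresh medium holding 1 µM flg22 1 h before harvest. Both groups carry the wrky18 mutation, and the labels name neither the alleles nor the lines. Any other difference between the lines cannot be told apart from the loss of WRKY40. Other groups are used here for reference: the same pair of genotypes untreated (0 h) and after 2 h of flg22, and wrky40 and WT, which both keep WRKY18, at 1 h. Untreated seedlings had no change of medium. RNA came from whole seedlings, so fewer cells of a type and less RNA per cell cannot be told apart.

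WRKY proteins are plant transcription factors that bind the W box, a short promoter element with the core TTGAC. WRKY18, WRKY40 and WRKY60 form a small subgroup and are known mostly as repressors of immune genes, with overlapping roles in resistance to powdery mildew. flg22 is a peptide of bacterial flagellin. The receptor kinase FLS2 senses it together with its co-receptor BAK1, and mitogen-activated and calcium-dependent protein kinases then switch on immune genes, among them many WRKY genes.

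Total counts ran from 27671943 to 38709715 in the double mutant and from 20828914 to 25336494 in wrky18, so depth did not overlap between the groups. The edgeR quasi-likelihood test covered 21356 genes, with p-values adjusted by Benjamini-Hochberg. Levels are CPM (counts scaled to library size) after TMM scaling, given per library or as mean ± SD (n = 3). Changes are log2 fold changes ± SE of the double mutant over wrky18. The SE was not estimated directly: it is the absolute log2 fold change divided by the square root of the F statistic of the edgeR test. Calls were made at an adjusted p under 0.05. Among 11 reference genes such as the actin gene ACT2, 0 were called and the median change was 0.02. Markers of roots (19 tested), photosynthesis (26) and the circadian clock (19) also gave 0 calls by edgeR. At an unadjusted p under 0.05 there were 1 reference, 5 root, 0 photosynthesis and 6 clock genes, and DESeq2 called 1 reference gene and 2 clock genes. With the replicate block, 3 clock genes were called higher and 2 lower, and 1 reference gene higher.

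The mutated genes were measured first. WRKY40 (AT1G80840, chromosome 1, 30383561 to 30385499 of TAIR10.1) had 24.5, 32.0 and 20.1 CPM in the double mutant, against 269.9, 323 and 252.5 CPM in wrky18. The groups lay far apart, and the change of -3.47 ± 0.24 (edgeR adjusted p = 1.55e-11) left a residual signal in the double mutant; 51 bp of the gene overlap AT1G80850 on the other strand. WRKY18 (AT4G31800, chromosome 4, 15382777 to 15385100) had 54.1, 53.7 and 49.0 CPM in the double mutant, against 26.0, 31.8 and 26.6 CPM in wrky18. Both lines carry the wrky18 mutation, yet all 3 double mutant libraries lay above all 3 wrky18 libraries, a rise of 0.90 ± 0.14 (adjusted p = 1.62e-04). The table has one count for each gene, so the part of the WRKY18 transcript that was read is unknown. WRKY60 (AT2G25000) had 15.2, 18.22 and 11.6 CPM in the double mutant, against 11.4, 11.2 and 10.2 CPM in wrky18, a change of 0.46 ± 0.25 that did not pass the test (adjusted p = 0.302).

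The neighbours of the mutated genes were checked as well. AT4G31805, annotated as a WRKY family transcription factor and next to WRKY18, had 0 counts in all 6 libraries, against 4.50 CPM in wrky40 and 3.58 CPM in WT at 1 h. No read of this transcript was thus counted in either line of the comparison. Its description as a WRKY factor rests on the annotation alone, and the gene is not in the WRKY family list used below. The other neighbours measured, AT4G31790 and AT4G31810 beside WRKY18 and CCR2, NRAMP1 and AT1G80850 beside WRKY40, were not called.

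More genes were called higher than lower in the double mutant. Of the genes tested, 1256 were called (5.88%), 938 higher (4.39%) and 318 lower (1.49%) in the double mutant. Most changes were small: the median was 0.44 among the higher and -0.50 among the lower genes, and 83 higher (0.389%) and 44 lower (0.206%) genes changed at least 2-fold. The 3 double mutant libraries all lay above the 3 wrky18 libraries for 3019 genes (14.1%) and all below for 2300 (10.8%). With the replicate number as a block, 1964 genes were called, 573 of them lower. The excess of higher genes depended on the scaling, since TMM gave 938 higher and 318 lower genes but scaling by library totals gave 606 and 546. The total call count was 669 without double mutant replicate 1, 699 without double mutant replicate 3, 580 without wrky18 replicate 1 and 613 without wrky18 replicate 2. In the same order the higher genes numbered 540, 580, 442 and 511 and the lower genes 129, 119, 138 and 102. With any 1 of the 6 libraries left out, 323 of the 938 higher genes (34.4%) and 41 of the 318 lower genes (12.9%) kept their call every time. With the 6 libraries thinned to equal totals, an alternative chosen after the data were seen, 723 higher and 366 lower genes were called.

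**Figure D1:**
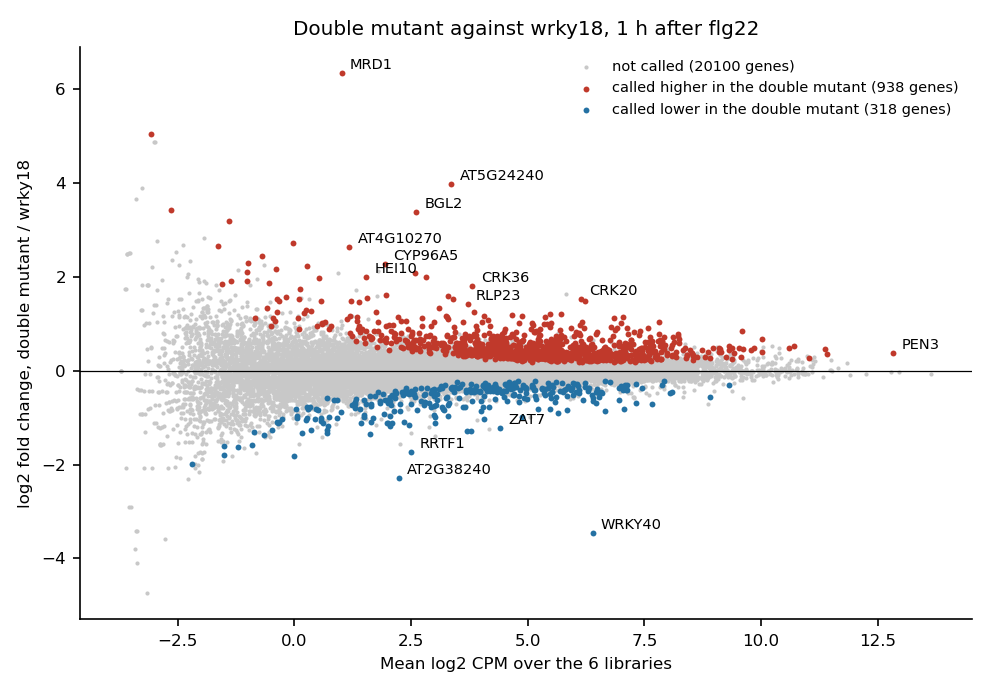
Log2 fold change of the double mutant over wrky18 at 1 h (y axis) against the mean log2 CPM over the 6 libraries (x axis), with 1 point for each of the 21356 genes tested. Red points are the 938 genes called higher and blue points the 318 called lower; the red points outnumber the blue ones, and most called genes lie close to 0.

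The plot of fold change against level shows that the largest rises stood apart from the bulk of small ones. The 12 largest, taken among called genes with a mean log2 CPM of at least 1 and with groups that did not overlap, ran from 1.54 to 6.34. AT5G24240, annotated as a phosphatidylinositol 4-kinase gamma-like protein (chromosome 5, 8230916 to 8234150), had 40.4, 34.7 and 46.2 CPM in the double mutant, against 3.02, 2.46 and 2.24 CPM in wrky18. Its rise of 3.98 ± 0.21 (adjusted p = 2.71e-14) held with any 1 library left out. MRD1 (AT1G53480, chromosome 1, 19963047 to 19964712) had 16.4, 16.4 and 17.1 CPM in the double mutant, against 0.0960, 0.460 and 0.0813 CPM in wrky18, a rise of 6.34 ± 0.28 (adjusted p = 1.56e-16). MRD1 shares 1446 bp with HEI10 (AT1G53490), a RING-domain gene on the other strand that rose by 1.99 ± 0.19. The strand setting of the counting is not given in the sources used here, so reads of these overlapping genes cannot be told apart.

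BGL2 (AT3G57260, chromosome 3, 21188397 to 21189967), the pathogenesis-related glucanase gene also called PR2 and a marker of salicylic acid signalling, had 23.6, 32.1 and 18.3 CPM in the double mutant, against 0.624, 5.93 and 0.813 CPM in wrky18. One wrky18 library, replicate 2, lay well above the other two without reaching the double mutant. The rise was 3.38 ± 0.80 (adjusted p = 0.00847) and lost its call without wrky18 replicate 1 (2.92, adjusted p = 0.0708). PNP-A, which encodes a secreted natriuretic peptide, had 13.2, 11 and 12.9 CPM in the double mutant, against 2.30, 4.25 and 2.32 CPM in wrky18 (2.08 ± 0.32). MAPKKK19, a mitogen-activated protein kinase kinase kinase gene, had 15.8, 18.8 and 16.5 CPM in the double mutant, against 4.18, 6.29 and 6.51 CPM in wrky18 (1.58 ± 0.17, adjusted p = 2.05e-07). In both genes every double mutant library was more than 2-fold above the highest wrky18 library.

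The cytochrome P450 gene CYP96A5 rose by 2.26 ± 0.35, with 7.46, 13.5 and 5.26 CPM in the double mutant, against 1.15, 2.76 and 1.54 CPM in wrky18. AT5G55460, annotated as a lipid-transfer protein, rose by 2.00 ± 0.23, with 14.1 ± 2.27 CPM in the double mutant and 3.53 ± 0.85 CPM in wrky18. The wound-responsive family gene AT4G10270 was higher by 2.63 ± 0.72 (adjusted p = 0.0246), a call that was lost without double mutant replicate 1 or 2 (adjusted p = 0.0605 and 0.0606) or wrky18 replicate 1 or 2 (0.0920 and 0.11). The cysteine-rich receptor kinase genes CRK36, CRK6 and CRK7 complete the 12. Of these 12 genes, 9 kept their call with any 1 library left out.

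The promoters of these 12 genes were searched for the W box, spelled TTGACC or TTGACT on either strand, within 250 bases before the annotated start. It was found in 4 of the 12, against 28.8% of promoters over all tested genes. These 4 promoters are printed to show where the element stands in them. The sequences are from the RefSeq TAIR10.1 genome, read 5′ to 3′ in the direction of the gene and ending just before its start; capitals mark each W box, which reads GGTCAA or AGTCAA where it lies on the other strand.
AT5G24240 promoter (chr5:8234151-8234400, minus strand): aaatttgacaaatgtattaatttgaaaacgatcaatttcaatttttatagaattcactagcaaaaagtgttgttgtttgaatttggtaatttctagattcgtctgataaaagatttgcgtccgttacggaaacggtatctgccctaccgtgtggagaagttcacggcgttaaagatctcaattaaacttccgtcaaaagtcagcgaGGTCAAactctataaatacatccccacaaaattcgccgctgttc
AT5G55460 promoter (chr5:22468329-22468578, plus strand): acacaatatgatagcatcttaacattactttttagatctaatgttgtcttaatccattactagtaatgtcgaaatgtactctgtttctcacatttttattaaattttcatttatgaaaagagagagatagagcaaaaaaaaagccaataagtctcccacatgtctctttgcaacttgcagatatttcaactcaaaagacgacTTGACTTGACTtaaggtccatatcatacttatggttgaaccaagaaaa
CRK36 promoter (chr4:2234690-2234939, minus strand): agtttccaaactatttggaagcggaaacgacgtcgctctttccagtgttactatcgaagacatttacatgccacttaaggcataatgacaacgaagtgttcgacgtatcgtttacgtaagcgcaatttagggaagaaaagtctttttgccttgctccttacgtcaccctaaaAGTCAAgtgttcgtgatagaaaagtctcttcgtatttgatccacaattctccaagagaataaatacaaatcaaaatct
CRK6 promoter (chr4:12121119-12121368, plus strand): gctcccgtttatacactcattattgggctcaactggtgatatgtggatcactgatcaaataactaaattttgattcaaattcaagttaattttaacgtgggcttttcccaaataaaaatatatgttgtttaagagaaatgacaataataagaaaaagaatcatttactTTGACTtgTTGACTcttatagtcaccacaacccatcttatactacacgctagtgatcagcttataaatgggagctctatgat

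The first base of the W box lies 44 bases before the start in AT5G24240 and 78 in CRK36. AT5G55460 holds 2 overlapping boxes at 48 and 43 bases, which share 1 base, and CRK6 holds 2 separate boxes at 82 and 74 bases. Over all 938 higher genes, 422 (45%) had a W box within 250 bases, against 6116 of all 21220 tested genes with an annotated promoter (28.8%). Among the 318 lower genes it was 83 (26.1%). Within 500 bases the shares were 60.7% of higher genes, 46.2% of lower genes and 45.3% of all genes. At least 2 boxes within 250 bases were held by 14.5% of higher genes, 5.97% of lower genes and 6.28% of all genes. A match of these letters is a description of the promoter and does not show binding. Of the higher genes, 81.8% were raised by flg22 in WT at 1 h. The share with a W box among all genes raised in WT is not given here, so a link of the box to WRKY40 was not tested.

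The plot of levels per library sets the genes that rose beside those that fell.

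**Figure D2:**
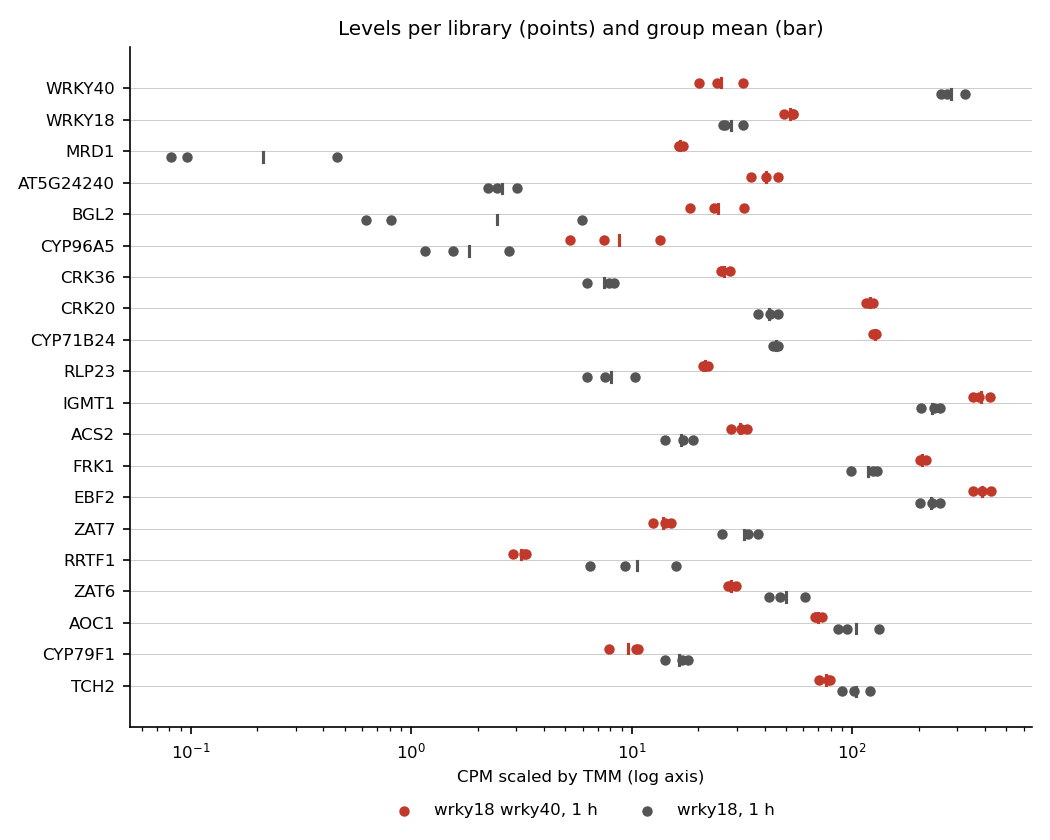
CPM after TMM scaling (x axis, log scale) of 20 named genes in each of the 6 libraries at 1 h; points are libraries, the short vertical bar is the mean of 3, red is the double mutant and grey is wrky18. In every gene shown the 3 red points lie on one side of the 3 grey points, to the left for WRKY40 and for ZAT7 and the genes under it, to the right for the others. All 20 are called genes, and those from the 12 largest rises and falls were chosen for groups without overlap, so this separation partly follows from selection. Over all tested genes the double mutant libraries lay all above in 14.1% and all below in 10.8%.

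Receptor kinase genes of the cysteine-rich (CRK) family, which carry a cysteine-rich domain outside the cell, were the list with the largest share of rises. Of 37 tested, 12 were called higher and 0 lower, with a median of 0.39 over the list, against -0.00 over all genes. With the replicate block it was 13 higher and 2 lower. The counts of this and the following lists stand beside 4.39% called higher and 1.49% called lower over all tested genes. The summed level of the 37 genes was 3248 to 3375 CPM in the double mutant and 2406 to 2597 CPM in wrky18. CRK36 had 25.7, 25.3 and 27.9 CPM in the double mutant, against 7.87, 6.29 and 8.30 CPM in wrky18 (1.81 ± 0.22, adjusted p = 1.76e-06). CRK20 had 115.6, 119.3 and 124.7 CPM in the double mutant, against 42.2, 37.3 and 46.2 CPM in wrky18 (1.52 ± 0.15, adjusted p = 8.74e-08). In both genes the groups were separated by a gap far wider than the spread within either. CRK2 rose by 0.75 ± 0.09, CRK18 by 0.58 ± 0.10, and CRK6 by 1.60 ± 0.33. CRK7 was higher by 1.54 ± 0.43, a call that only the fit without wrky18 replicate 2 kept among the leave-outs (adjusted p = 0.0239 there and 0.0513 to 0.142 in the others).

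The CRK genes called higher sat in groups on the chromosomes. CRK2 and CRK3 lie side by side on chromosome 1, and both were called. In a stretch of chromosome 4 from 2231717 to 2292965, 3 of 5 tested CRK genes were called, and from 12117491 to 12191704 it was 7 of 18. Neighbouring CRK genes are close copies, so reads may be split between them and the values of single members are uncertain to that extent. A W box lay within 250 bases in 24 of the 37 CRK promoters (64.9%), against 28.8% over all tested genes. With 1 library left out, 9 to 12 CRK genes were called higher.

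The receptors of microbial patterns and the kinases behind them had more rises than falls, most of them small. Of 35 tested, 10 (28.6%) were called higher and 1 (2.86%) lower, against 4.39% and 1.49% over all genes, with a median of 0.19. RLP23, the receptor-like protein that senses a peptide of necrosis-inducing toxins, had 21.3, 21.0 and 22.1 CPM in the double mutant, against 6.29, 10.4 and 7.56 CPM in wrky18 (1.41 ± 0.24, adjusted p = 3.04e-04). The double mutant libraries were close together and about 2-fold above the highest wrky18 library. FLS2, the flg22 receptor itself, was higher by 0.30 ± 0.08 (adjusted p = 0.0157), with 211.9 CPM in the double mutant and 172 CPM in wrky18. BIR1, an inhibitor of BAK1, rose by 0.38 ± 0.07, and LYM2, a chitin-binding protein, by 0.54 ± 0.11. BAK1 was higher by 0.34 ± 0.07 (adjusted p = 0.00532), a call lost without wrky18 replicate 1 (0.27, adjusted p = 0.0681). FLS2 lost its call without double mutant replicate 1 or 2 or wrky18 replicate 1 or 2 (adjusted p = 0.051, 0.0556, 0.0628 and 0.0516). The chitin receptor gene CERK1 (0.29 ± 0.07), the ubiquitin ligase gene PUB12 (0.40 ± 0.10) and the kinase genes MPK4 (0.25 ± 0.06), MPK6 (0.21 ± 0.06) and CPK4 (0.22 ± 0.07) make up the rest. With 1 library left out, CERK1 lost its call in 1 of 6 fits, PUB12 in 3, MPK4 in 4, CPK4 in 5 and MPK6 in 6. PEPR2, a receptor of plant danger peptides, was lower by 0.56 on the log2 scale, with 18.41 CPM in the double mutant and 27.2 CPM in wrky18 (adjusted p = 0.0206), a call lost without double mutant replicate 2 or 3 or wrky18 replicate 1 or 2 (0.0876, 0.0532, 0.0651 and 0.11). The count of higher genes was 3 without wrky18 replicate 1, 6 without double mutant replicate 1 or 3, and 7 without any of the other 3 libraries.

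Early flg22-responsive genes moved both ways. Of 18 tested, 2 were called higher and 2 lower, with a median of -0.01. FRK1, a receptor kinase gene widely used as an flg22 marker, had 205.3, 215 and 202.9 CPM in the double mutant, against 124.4, 99.0 and 129.6 CPM in wrky18 (0.82 ± 0.15, adjusted p = 8.19e-04). WRKY29, which acts downstream of the flagellin receptor, had 252, 244.1 and 243.7 CPM in the double mutant, against 176, 165.4 and 176.7 CPM in wrky18 (0.51 ± 0.08, adjusted p = 2.03e-04). Both were clearly higher in every double mutant library. PHI-1, a phosphate-responsive family gene, and RHL41, the zinc finger gene also called ZAT12, were lower, with -0.82 ± 0.24 (adjusted p = 0.0401) and -0.70 ± 0.19 (adjusted p = 0.0278). Each of these falls was called only without wrky18 replicate 3 among the leave-outs; the others gave adjusted p from 0.0804 to 0.140 for PHI-1 and from 0.0544 to 0.155 for RHL41.

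In the WRKY family itself, 11 of 59 tested genes were called higher and 2 lower, with a median of 0.19. WRKY18 and WRKY29 have been given, and WRKY8, a regulator of basal defence, had 18.6, 20.1 and 18.8 CPM in the double mutant, against 10.8, 11.8 and 11.3 CPM in wrky18 (0.76 ± 0.15, adjusted p = 0.00166). WRKY75 (0.62 ± 0.15), WRKY45 (0.55 ± 0.14), WRKY48 (0.54 ± 0.15), WRKY6 (0.49 ± 0.15) and WRKY71 (0.95 ± 0.29) were also called higher. So were WRKY55 (0.73 ± 0.22), WRKY39 (0.30 ± 0.08) and WRKY58 (1.52 ± 0.39), the last at 1.69 CPM in the double mutant and 0.594 CPM in wrky18. The counts include the mutated genes, WRKY18 among the higher and WRKY40 among the lower ones. WRKY40 and WRKY23 (-0.42 ± 0.13, adjusted p = 0.0473) were the lower ones. With 1 library left out, WRKY75 lost its call in 1 of 6 fits, WRKY58 in 3 and WRKY45 in 4. WRKY23 and WRKY39 lost it in 5, and WRKY48, WRKY6, WRKY71 and WRKY55 in 6. With 1 library left out the count of higher WRKY genes was 4, 5 and 6 without double mutant replicate 1, 2 and 3 and 6, 3 and 6 without wrky18 replicate 1, 2 and 3.

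Genes of salicylic acid synthesis, perception and systemic resistance had a median of 0.34, and 3 of 22 were called higher and 0 lower (6 higher with the replicate block). These were BGL2, NPR4, a salicylic acid receptor (0.64 ± 0.15, adjusted p = 0.00714), and EDS1, a lipase-like hub of immune signalling (0.33 ± 0.08, adjusted p = 0.0119). NPR4 had 23.2, 21.7 and 26.7 CPM in the double mutant, against 12.0, 15.6 and 18.3 CPM in wrky18, so the groups stood apart by little. Without wrky18 replicate 1 none of the 3 was called, at adjusted p = 0.0896 for NPR4 and 0.138 for EDS1. NPR4 also lost its call without double mutant replicate 3 (0.0569), and EDS1 without double mutant replicate 1 (0.0505).

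Of 10 tested genes of camalexin and indole carbonyl nitrile synthesis, 2 were called higher and 0 lower, with a median of 0.20; the replicate block called 1 lower as well. CYP71A12, a P450 enzyme that converts indole-acetaldoxime, had 81.0, 74.7 and 84.1 CPM in the double mutant, against 31.4, 34.7 and 38.4 CPM in wrky18 (1.198 ± 0.26, adjusted p = 0.00437). PAD3, which makes the last steps to the antimicrobial camalexin, had 38.2, 40.7 and 39.9 CPM in the double mutant, against 18.23, 20.9 and 19.7 CPM in wrky18 (1.01 ± 0.21, adjusted p = 0.00272). Both genes were about 2-fold higher with little spread in either group, and both calls held with any 1 library left out.

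Of 16 genes of indole glucosinolate synthesis and use, 4 were called higher and 0 lower, with a median of 0.27, and their summed level was 15370 to 15910 CPM in the double mutant and 11740 to 12720 CPM in wrky18. IGMT1, a methyltransferase of these compounds, had 375.6, 419.5 and 353.6 CPM in the double mutant, against 205.1, 249.7 and 235.2 CPM in wrky18 (0.74 ± 0.12, adjusted p = 2.21e-04). IGMT1 has a close copy, IGMT2, that may share reads with it. MYB122, a transcription factor of the pathway, rose by 1.06 ± 0.20. PEN3, an ABC transporter gene that makes up much of the sum, had 8433, 8006 and 8520 CPM in the double mutant, against 6371, 5921 and 6954 CPM in wrky18. Its call (0.38 ± 0.11, adjusted p = 0.0379) and that of the myrosinase gene PEN2 (0.27 ± 0.08, adjusted p = 0.0385) held without wrky18 replicate 3 and, for PEN2, also without wrky18 replicate 2; in the other leave-outs adjusted p was 0.0541 to 0.167 for PEN3 and 0.0765 to 0.255 for PEN2. The list then held 2 calls without any 1 of the double mutant libraries or wrky18 replicate 1. Of 10 genes of tryptophan synthesis, ASA1, the first enzyme of the branch, was the single call (0.42 ± 0.09, adjusted p = 0.00406).

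The CYP71B family of cytochrome P450 enzymes had 7 of 23 tested genes higher and 0 lower, with a median of 0.13. CYP71B24 had 127.1, 128.4 and 123.6 CPM in the double mutant, against 43.6, 45.1 and 46.2 CPM in wrky18 (1.49 ± 0.12, adjusted p = 7.83e-10). CYP71B23 rose by 1.00 ± 0.10, with 181.7 ± 13.6 CPM in the double mutant and 90.6 ± 6.52 CPM in wrky18. The libraries of each group lay close together in both genes, and the gap between groups was wide. On chromosome 3 from 9573263 to 9648658, 4 of 13 tested members were called higher; these are close copies that may share reads. CYP71B6 (0.60 ± 0.09) and CYP71B7 (0.41 ± 0.08), on other chromosomes, also rose. With 1 library left out, 5 members were called each time.

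Ethylene genes had calls in both directions. Of 26 tested, 8 were called higher and 3 lower, with a median of 0.21. Among genes of ethylene synthesis, ACS2 had 31.1, 28.1 and 33.5 CPM in the double mutant, against 14.2, 18.9 and 17.1 CPM in wrky18 (0.89 ± 0.14, adjusted p = 1.29e-04), and the ethylene-forming oxidase gene EFE rose by 0.45 ± 0.09. ACS8, another ACC synthase gene, fell by 1.18 ± 0.26 on the log2 scale (adjusted p = 0.00532), with 2.77, 2.42 and 2.93 CPM in the double mutant, against 7.39, 6.04 and 5.08 CPM in wrky18. ACS2 and ACS8 thus moved in opposite directions, each with groups that did not overlap.

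Among ethylene signalling genes, the negative regulators CTR1, a kinase, and EBF2, an F-box protein, rose by 0.48 ± 0.07 (adjusted p = 4.29e-05) and 0.77 ± 0.12 (adjusted p = 8.01e-05). EBF2 had 386.6, 425.7 and 351.9 CPM in the double mutant, against 230.9, 202.2 and 248.9 CPM in wrky18. The ERF activator genes ERF1 (0.96 ± 0.20) and ORA59 (1.03 ± 0.23) rose, and RRTF1, also called ERF109, and ERF13 fell. RRTF1 (chromosome 4, 16451876 to 16453260) had 3.24, 3.31 and 2.90 CPM in the double mutant, against 9.31, 15.9 and 6.46 CPM in wrky18 (-1.74 ± 0.33, adjusted p = 0.00104). The spread lay mainly in wrky18, whose lowest library was still about 2-fold above the double mutant; 301 bp of RRTF1 overlap a gene on the other strand. The count of lower ethylene genes was 3 with any 1 library left out. Of the higher genes, ACS6 (0.58 ± 0.18, adjusted p = 0.0496) lost its call in 6 of 6 leave-outs and ERS1 (adjusted p = 0.0381) in 5.

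Calls among the stress-related zinc finger genes of the ZAT and AZF group were all falls. All 8 tested had a negative change, 3 of them called, with a median of -0.41, and their summed level was 476.7 to 489.4 CPM in the double mutant and 570.9 to 724.9 CPM in wrky18. ZAT5 and ZAT8 were listed but matched no symbol of the annotation, so they are not among the 8. ZAT7 had 12.5, 14.1 and 15.1 CPM in the double mutant, against 33.8, 37.5 and 25.8 CPM in wrky18 (-1.22 ± 0.18, adjusted p = 8.05e-05). ZAT6 had 27.2, 29.8 and 27.8 CPM in the double mutant, against 47.0, 60.7 and 41.7 CPM in wrky18 (-0.82 ± 0.14, adjusted p = 3.36e-04). In both genes the double mutant libraries were the tighter ones. ZAT7 is among the 12 largest falls, which were chosen with groups that did not overlap. The third call was RHL41. The zinc finger gene AT3G46080 has the locus number next to that of ZAT7 (AT3G46090) and is not in this list. Whether reads were shared between them was not tested. Among 8 cold-related CBF and DREB genes only KIN1, a cold and drought marker, was called (-1.29 ± 0.35, adjusted p = 0.0237), a call lost without double mutant replicate 1 (0.0845) or 3 (0.0967) or wrky18 replicate 1 (0.0964).

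Of 29 jasmonate genes, 23 had a negative change and 5 were called, all lower, with a median of -0.26 and a summed level of 2341 to 2510 CPM in the double mutant and 2655 to 2952 CPM in wrky18. The called genes were the synthesis genes AOC1, AOC3 and AOS and the repressor genes JAZ3 and TIFY7. AOC1, an allene oxide cyclase, had 68.8, 72.8 and 67.5 CPM in the double mutant, against 86.0, 132.2 and 94.9 CPM in wrky18 (-0.58 ± 0.14, adjusted p = 0.00940). AOS, the allene oxide synthase before it, had 57.0, 57.9 and 60.4 CPM in the double mutant, against 69.9, 106 and 66.8 CPM in wrky18 (-0.47 ± 0.14, adjusted p = 0.0426). In both genes wrky18 replicate 2 was far above the other libraries. Without it none of the 29 genes was called, and AOC1 stood at -0.38 (adjusted p = 0.149) and AOS at -0.23 (adjusted p = 0.414). JAZ3 lost its call in all 6 leave-outs and AOC3 and TIFY7 in 5 each. The count was 1 without double mutant replicate 1, 2 or 3 and 2 without wrky18 replicate 1.

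The 12 largest falls were taken by the same rule as the largest rises, so their groups did not overlap by selection. Among these falls, wrky18 replicate 2 was the highest wrky18 library in WRKY40, AT2G38240, RRTF1, AT1G72910, ZAT7, CYP81D11, GRX480 and AT3G46080. It was not the highest in KIN1, RNS1, ACS8 or AT1G29090. AT2G38240, annotated as an iron-dependent oxygenase, had 1.98, 2.66 and 2.63 CPM in the double mutant, against 6.33, 25.1 and 4.43 CPM in wrky18 (-2.30 ± 0.71, adjusted p = 0.0493). Without wrky18 replicate 2 its change was -1.15 (adjusted p = 0.471), and without wrky18 replicate 3 alone did the call hold; the other leave-outs gave adjusted p from 0.0552 to 0.166. AT1G72910, a TIR-domain gene, fell by 1.36 ± 0.31 on the log2 scale and lost its call without wrky18 replicate 2 (-1.17, adjusted p = 0.0548). The ribonuclease gene RNS1 (-1.29 ± 0.39), the glutaredoxin gene GRX480 (-1.12 ± 0.34), the P450 gene CYP81D11 (-1.15 ± 0.34) and the zinc finger gene AT3G46080 (-1.12 ± 0.31) were called at adjusted p from 0.0263 to 0.0442 and lost the call in all 6 leave-outs for RNS1 and in 5 of 6 for the others. Of the 12 largest falls, 4 kept their call every time: WRKY40, RRTF1, ZAT7 and ACS8.

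Genes that respond to handling and heat were measured beside these falls. Of 5 touch genes, 4 had a negative change and TCH2, a calmodulin-like gene, was called (-0.46 ± 0.11, adjusted p = 0.00871); the replicate block called 3 of the 5 lower. ZAT10 is counted both among these touch genes and in the ZAT and AZF list. TCH2 lost its call without double mutant replicate 2 (0.0518) or wrky18 replicate 2 (0.11). The median of the list was -0.55, and its summed level overlapped between the groups, at 2709 to 3036 CPM in the double mutant and 2831 to 3361 CPM in wrky18, with none of the markers at 0. Of 8 heat shock genes, 7 had a negative change and HSP70 was called (-0.60 ± 0.18, adjusted p = 0.0457; 0.0676 to 0.137 with 1 library left out). Their median was -0.62, and the summed level did not overlap, with 74.4 to 112.4 CPM in the double mutant and 145.8 to 162.1 CPM in wrky18. The part of handling or heat in the falls of the ZAT, jasmonate and early flg22 genes was not tested.

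The remaining lists had few calls. Of 13 flavonoid genes, TT4, which encodes chalcone synthase, was the 1 called, lower by 0.56 ± 0.15 on the log2 scale, and the summed level of the list was 98.9 to 105.8 CPM in the double mutant and 130.4 to 150.3 CPM in wrky18. Of 13 aliphatic glucosinolate genes CYP79F1 was lower (-0.77 ± 0.21). TT4 lost its call without double mutant replicate 1 or 3 or wrky18 replicate 1 (adjusted p = 0.0892, 0.0659 and 0.123), and CYP79F1 without double mutant replicate 1 or wrky18 replicate 1 or 2 (0.131, 0.103 and 0.0743). Of 14 mitochondrial stress genes only NAC017 was called (0.21 ± 0.06, adjusted p = 0.0361), and of 14 abscisic acid genes only the phosphatase genes ABI1 (0.31 ± 0.10) and HAB2 (0.27 ± 0.08). These 3 lost the call in 5 of 6 leave-outs each. Of 44 expansin and XTH wall genes, XTH14 (0.72 ± 0.21) and EXPA12 (0.83 ± 0.25) were higher and XTH6 lower (-0.99 ± 0.23). None of these calls held in every leave-out, and the replicate block called 4 lower. The shares of this list, 4.55% higher and 2.27% lower, were near the 4.39% and 1.49% over all genes. None of 20 phenylpropanoid and 22 Aux/IAA genes was called by edgeR or DESeq2, and 1 and 2 of them had an unadjusted edgeR p under 0.05.

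**Figure D3:**
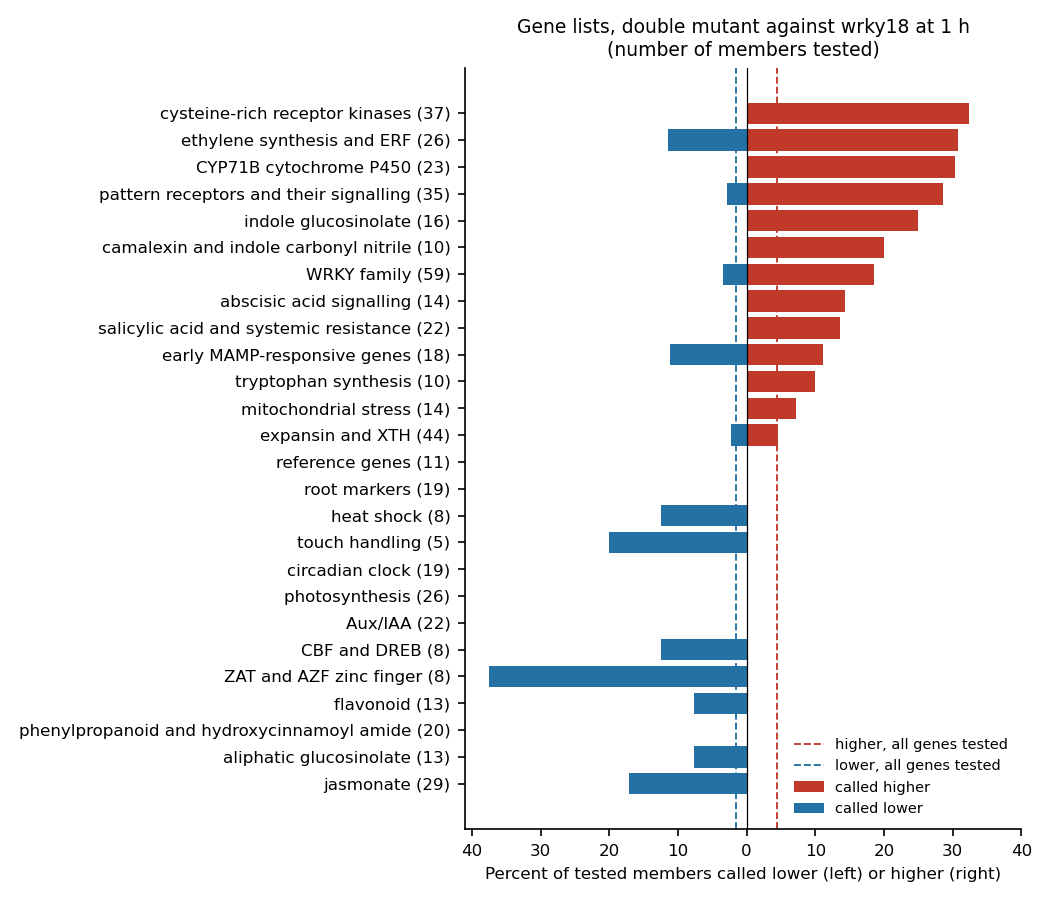
Share of the tested members of each of 26 gene lists called lower (blue, to the left) or higher (red, to the right) in the double mutant than in wrky18 at 1 h, in percent, with the number tested in brackets; dashed lines mark 4.39% higher and 1.49% lower over all tested genes. The CRK, ethylene, CYP71B and pattern receptor lists reach furthest to the right, and the ZAT and AZF, touch and jasmonate lists furthest to the left.

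The plot of shares by list places 12 of 37 CRK genes beside 3 of 8 ZAT and AZF genes, so short lists can reach a large share with few genes. To place the changes beside the response to flg22, the called genes were sorted by their change in WT at 1 h against 0 h, a comparison that shares no library with the one described here and in which 6156 genes were called higher (28.8%) and 6833 lower (32.0%). Medium change and flg22 cannot be told apart in it. Of the 938 genes higher in the double mutant, 767 (81.8%) were raised in WT, 49 (5.22%) lowered and 122 (13%) neither. Of the 318 lower genes, 113 (35.5%) were raised in WT and 159 (50%) lowered. Read the other way, 12.5% of the genes raised in WT were higher in the double mutant and 1.84% lower. For the 12 largest rises, 8 were raised in WT and 1 lowered, and for the 12 largest falls it was 6 and 3.

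The loss of WRKY40 can also be read in wrky40 against WT at 1 h, where WRKY18 is intact and no library is shared. There 477 genes were called (2.23%), 358 higher (1.68%) and 119 lower (0.557%). That count was 233 and 190 without wrky40 replicate 2 and 3 and 255, 227 and 217 without WT replicate 1, 2 and 3, and 758 with the replicate block. The 2 comparisons shared 219 higher genes, which is 23.3% of the 938 and 61.2% of the 358, and 22 lower genes, which is 6.92% of the 318 and 18.5% of the 119. WRKY40, the gene lost in both, is among the 22. Of the 938 higher genes, 2 were called lower in wrky40, as 2 of the 318 lower genes were called higher, and 789 (84.1%) had a positive change there, with a median of 0.19 against 0.44. Across all tested genes the 2 log2 fold changes had r = 0.248 (21356 genes, which are not independent replicates).

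**Figure D4:**
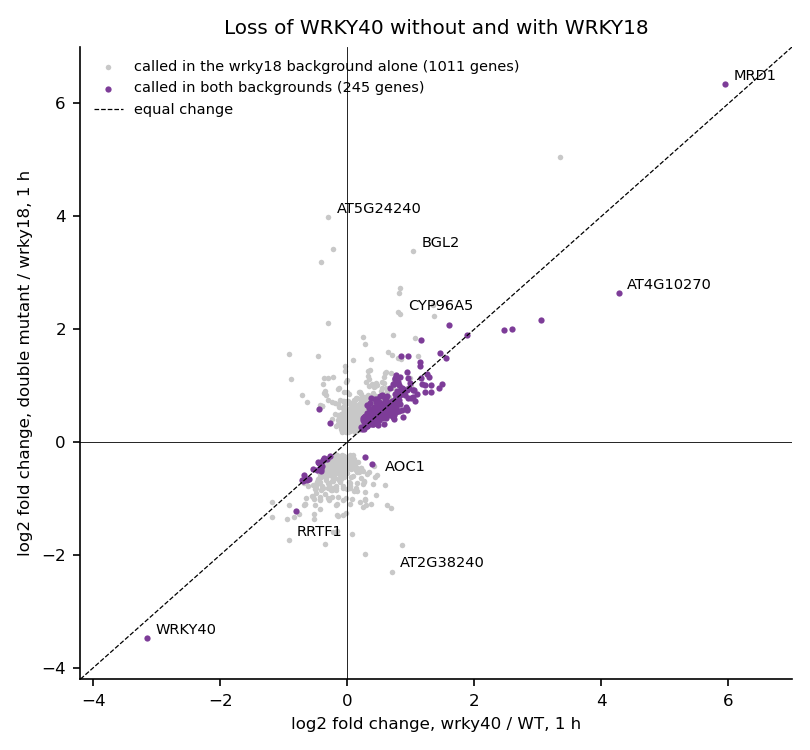
Log2 fold change of the double mutant over wrky18 at 1 h (y axis) against that of wrky40 over WT at 1 h (x axis) for the 1256 genes called in the first; purple genes were called in both, grey ones in the wrky18 background alone, and the dashed line marks equal change. MRD1, at 6.34 and 5.95, lies near the line, while AT5G24240, at 3.98 and -0.30, lies far from it.

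The plot of both backgrounds shows genes near and far from the line of equal change. MRD1 was near it, with 23.2 CPM in wrky40 and 0.371 CPM in WT (5.95 ± 0.24), and CYP71B24 too, with 81.7 CPM in wrky40 and 27.7 CPM in WT (1.56 ± 0.12). CRK2 rose by 0.75 ± 0.09 in both. Of the 12 largest rises, 7 were also called in wrky40, and of the 12 largest falls 2, WRKY40 and ZAT7. Whether the effect differed between the backgrounds was tested as an interaction, which called 13 genes (0.0609%). The change was more positive in the wrky18 background in 6 (0.0281%) of them and more negative in 7 (0.0328%). The count was 5, 6 and 6 without double mutant replicate 1, 2 and 3, 4 and 27 without wrky18 replicate 2 and 3, 7, 5 and 36 without wrky40 replicate 1, 2 and 3, and 6 without any one WT library. It was 40 with the replicate block, 77 by DESeq2 and 58 when just those groups were fitted. The wrky18 background also had no counts of the neighbouring gene AT4G31805, so the interaction cannot be credited to WRKY18 alone.

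AT5G24240 had the largest positive difference. It had 40.4 ± 5.75 CPM in the double mutant and 2.57 ± 0.41 CPM in wrky18, but 3.34, 2.38 and 2.93 CPM in wrky40, against 4.01, 2.99 and 3.73 CPM in WT. Only the double mutant stood out among the 4 genotypes, and the interaction was 4.28 ± 0.32 (adjusted p = 3.07e-10). AT5G46295, an uncharacterized protein gene, had the largest negative difference. It had 56.4, 45.6 and 50.6 CPM in the double mutant, 59.6, 62.8 and 55.0 CPM in wrky18, 64.2, 46.6 and 42.4 CPM in wrky40, and 6.62, 6.59 and 6.24 CPM in WT. All 3 mutants lay at one level and WT far below it: loss of WRKY40 gave -0.22 ± 0.15 in the wrky18 background, which was not called, and 2.98 ± 0.18 in WT, an interaction of -3.19 ± 0.23 (adjusted p = 2.00e-10). These 2 interactions and that of AT2G12490 (1.02 ± 0.17, adjusted p = 0.00604) held in every leave-out among those the text names.

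The same pair of genotypes was also compared at 0 h and 2 h, in other libraries. Before treatment the calls numbered 312 (1.46%), with 215 genes higher (1.01%) and 97 lower (0.454%). That count was 543, 69 and 35 without double mutant replicate 1, 2 and 3 at 0 h and 118, 16 and 725 without wrky18 replicate 1, 2 and 3. It was 6 when just those groups were fitted, 618 by DESeq2 and 640 with the replicate block, and the overlaps with 0 h rest on this count. After 2 h they numbered 1384 (6.48%), with 665 higher (3.11%) and 719 lower (3.37%), with 863 without double mutant replicate 2 and 646 without wrky18 replicate 3. Of the 938 genes higher at 1 h, 38 (4.05%) were also called higher at 0 h, where they were 17.7% of the higher genes, and 260 (27.7%) at 2 h, where they were 39.1%. Of the 318 lower genes, 14 (4.4%) were called lower at 0 h and 53 (16.7%) at 2 h. Calls in the opposite direction numbered 0 at 0 h and 11 at 2 h among the higher genes, and 7 at 0 h and 2 at 2 h among the lower genes. Among the 12 largest rises 5 were called at 0 h and 10 at 2 h, and among the 12 largest falls 2 and 2. WRKY40, the mutated gene, is among these falls at both times, and so among the shared lower genes.

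**Figure D5:**
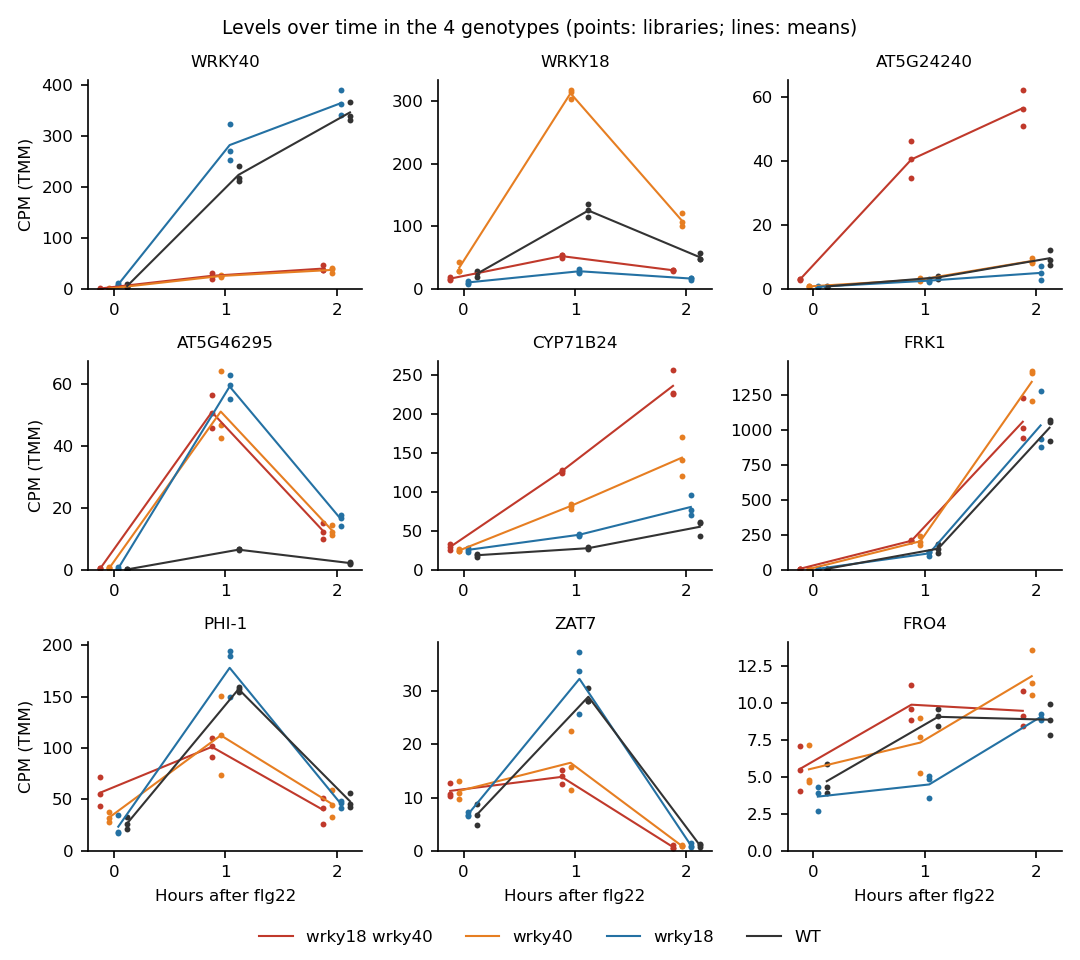
CPM after TMM scaling (y axis) at 0, 1 and 2 h after flg22 (x axis) for 9 genes in the double mutant (red), wrky40 (orange), wrky18 (blue) and WT (black); points are libraries and lines join the means of 3. AT5G24240 is high in the double mutant alone at 1 and 2 h, and AT5G46295 is at one level at 1 h in the 3 mutants, above WT. In AT5G24240 the double mutant was above wrky18 at 0 h as well.

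The courses over time show genes that differed before treatment and genes that did not. MRD1 was high at all times, with 23.0, 16.6 and 21.5 CPM at 0, 1 and 2 h in the double mutant and 0.230, 0.213 and 0.353 CPM in wrky18. BGL2 had 14.7, 24.7 and 19.8 CPM in the double mutant and 1.45, 2.46 and 3.27 CPM in wrky18 at the same times, called at each. CYP71B24 had 29.3, 126.4 and 236 CPM in the double mutant and 25.5, 45.0 and 80.6 CPM in wrky18. The difference did not pass the test at 0 h (0.20, adjusted p = 0.462) and was called at 1 h and 2 h. In AT5G24240 the difference was 3.98 at 1 h, after growing by 1.70 from 0 h. The double mutant was thus above wrky18 before flg22 as well, and the call of the growth was lost in 8 leave-outs.

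Whether the difference itself changed between times was tested directly. From 0 h to 1 h 146 genes were called (0.684%), 73 (0.342%) in each direction; the count was 59 and 85 without double mutant replicate 1 and 2 at 1 h, 68 and 87 without wrky18 replicate 1 and 2 at 1 h, 83 and 88 without double mutant replicate 2 and 3 at 0 h, and 67 and 289 without wrky18 replicate 2 and 3 at 0 h. It was 283 with the replicate block, 330 by DESeq2 and 73 when just those groups were fitted. The difference in CYP71B24 grew by 1.29 ± 0.17 (adjusted p = 3.09e-04). ZAT7 had 11.2 CPM in the double mutant and 6.85 CPM in wrky18 at 0 h but 13.9 and 32.3 CPM at 1 h, a change in difference of -1.94 ± 0.27 (adjusted p = 4.60e-04). PHI-1 had 56.6 CPM in the double mutant and 23.4 CPM in wrky18 at 0 h but 101.2 and 178.1 CPM at 1 h (-2.08 ± 0.35, adjusted p = 0.00221). In both genes the double mutant was the higher genotype before flg22 and the lower one after 1 h, although the 0 h difference in ZAT7 was not called (adjusted p = 0.0544).

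From 1 h to 2 h 202 genes were called (0.946%), 54 (0.253%) upwards and 148 (0.693%) downwards; the count was 109 and 113 without double mutant replicate 1 and 2 at 1 h, 106 and 131 without wrky18 replicate 1 and 2 at 1 h, 99 and 98 without double mutant replicate 2 and 3 at 2 h, and 95 and 102 without wrky18 replicate 1 and 3 at 2 h. It was 382 with the replicate block, 360 by DESeq2 and 396 when just those groups were fitted. CTR1 and EBF2, both higher at 1 h, did not pass the test at 2 h (-0.03, adjusted p = 0.864, and -0.01, adjusted p = 0.974), and their differences changed by -0.51 ± 0.10 (adjusted p = 0.00568) and -0.78 ± 0.16 (adjusted p = 0.0128). FRK1 had 1061 CPM in the double mutant and 1035 CPM in wrky18 at 2 h (0.04, adjusted p = 0.937), but the change in its difference, -0.78 ± 0.21, was not called (adjusted p = 0.0680). AT1G29090, a cysteine proteinase gene, was lower at 1 h by 1.12 ± 0.28 on the log2 scale (adjusted p = 0.0132, and 0.0824 without double mutant replicate 1 and 0.0584 without wrky18 replicate 2). At 2 h it had 0.387, 0.773 and 0.452 CPM in the double mutant, against 6.86, 4.54 and 7.48 CPM in wrky18, a change in difference of -2.41 ± 0.45 (adjusted p = 0.00478).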

How the data were processed

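Per the submitters' processing notes, reads of TruSeq Stranded libraries were checked with FastQC 0.11.2, aligned to TAIR10 with TopHat2 2.0.10 and counted per gene with HTSeq; the HTSeq version and the strand setting are not given in the sources used here. The deposited table holds raw counts of 32678 genes. Counts were analysed with edgeR 4.0.16 in R 4.3.3: filterByExpr over the 12 groups, TMM, a quasi-likelihood fit of group means to all 36 libraries (24 residual degrees of freedom, common biological coefficient of variation 10.71%) and two-sided tests adjusted by Benjamini-Hochberg over the genes tested. The script was tested on simulated data. DESeq2 1.42.0 was an alternative. The p-values rest on the spread within groups, estimated for each gene over all 12 groups. The design text calls the 3 libraries of a group biological replicates. It describes each replicate as a set of 12 samples, without naming a shared day or batch. A fit with the replicate number as a block is therefore given beside counts that it moves by over 1.5 times. Deviations of same-numbered double mutant and wrky18 libraries correlated at 0.0339, 0.266 and 0.314 at 1 h, 0.23, 0.096 and 0.243 at 0 h, and 0.153, 0.183 and 0.187 at 2 h. Over all groups the median was 0.134 for the same number and -0.0721 for different numbers.

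Symbols and coordinates come from the RefSeq annotation of TAIR10.1 (31912 genes matched), and promoters were read from its genome, since no promoter table was used here. Named genes are WRKY18, WRKY40, WRKY60 and the genes beside the first 2, the 12 largest rises and falls, up to 4 called members per list by smallest adjusted p, and 4 per direction for each interaction; further list members and CTR1, EBF2 and FRK1 at 2 h were added after their values were seen. The 26 lists and the members were chosen with earlier results of these data known. Listed symbols with no match in the annotation were left out. No set test was run.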

Additional observations from a re-analysis of the deposited data

Results flagged for a closer look

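The difference between the double mutant and wrky18 differed between 0 h and 1 h, by the interaction test in edgeR, in 8 genes named by size. It became more positive in AT5G24240 (1.70), CYP71B24 (1.29), AT3G52360 (1.2) and AT3G18950 (1.15), and more negative in AT3G46080 (-2.29), AT1G77640 (-2.22), PHI-1 (-2.08) and ZAT7 (-1.94). AT3G52360 had 25.1 CPM in the double mutant and 18.6 CPM in wrky18 at 1 h, but 6.597 and 11.3 CPM at 0 h. AT1G77640, annotated as an Integrase-type DNA-binding gene, had 1.65 CPM in the double mutant and 3.13 CPM in wrky18 at 1 h, but 7.09 and 2.84 CPM at 0 h. The call was lost without some single libraries for AT5G24240 (8 of 12) and AT3G18950 (5 of 12).

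Between 1 h and 2 h the difference became more positive in AT4G33666 (1.66), BT1 (1.48), PUB29 (1.42) and AT4G13820 (1.22), and more negative in AT1G29090 (-2.41), AT5G62280 (-2.27), HSFA2 (-1.86) and AT3G21330 (-1.71). PUB29, a ubiquitin ligase gene, had 46.0 CPM in the double mutant and 49.8 CPM in wrky18 at 1 h, but 41.4 and 16.7 CPM at 2 h. AT5G62280 had 7.49 CPM in the double mutant and 4.35 CPM in wrky18 at 1 h, but 2.41 and 6.85 CPM at 2 h. BT1 and HSFA2 lost the call in 10 of 12 leave-outs each and AT4G13820 in 5.

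At 1 h the effect of losing WRKY40 differed between the wrky18 and the WT background in 8 named genes. It was more positive in the wrky18 background, which also had no counts of AT4G31805, in AT5G24240 (4.28), FRO4 (1.44), CYP718 (1.06) and AT2G12490 (1.02). It was more negative there in AT5G46295 (-3.19), TGG2 (-1.05), AOC1 (-1.05) and JR1 (-0.92). FRO4, a ferric reductase gene, had 9.90 CPM in the double mutant and 4.49 CPM in wrky18, and 7.33 CPM in wrky40 and 9.07 CPM in WT. TGG2, a myrosinase gene, had 58.9 CPM in the double mutant and 90.3 CPM in wrky18, and 98.8 CPM in wrky40 and 72.9 CPM in WT. JR1 overlaps another gene by 631 bp on the other strand. FRO4, TGG2 and JR1 lost the call in 10 of 12 leave-outs each, CYP718 in 11 and AOC1 in 9.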

How the results depend on the processing

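Size factors by RLE and the fit without a filter on low counts kept the count of calls of each of the 7 comparisons within 1.5 times, and no named gene changed direction in a called result. Named genes did lose calls: 4 under RLE, 6 without the filter, 9 in fits on only the groups compared, 7 under library totals, 8 in the thinned libraries, 1 by DESeq2 and 0 with the replicate block. ABI1 and HAB2 were among them under the first 5 of these. The replicate block gave 1964 calls at 1 h, 573 of them lower, with 640 at 0 h, 758 for wrky40 against WT, and 283, 382 and 40 for the changes from 0 h to 1 h, from 1 h to 2 h and between backgrounds. DESeq2 gave 618 calls at 0 h and 330, 360 and 77 for the 3 interactions. Fits on only the groups compared gave 6 calls at 0 h and 73, 396 and 58. Scaling by library totals, chosen after the data were seen, gave 606 higher and 546 lower genes, 52.6% higher against 74.7% under TMM, with a median of -0.05 over all genes. With single libraries left out, calls at 1 h ran from 580 to 1464, higher genes from 442 to 1051, lower genes from 102 to 413, calls at 0 h from 16 to 725, at 2 h from 646 to 1160, for wrky40 against WT from 190 to 604, and for the interactions from 59 to 289, 95 to 203 and 4 to 36. The causes were not tested. Depth did not overlap between the groups, and its part in the calls was not tested beyond thinning.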
